A study of Mus musculus with 6 samples.

Results

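Heat shock proteins and their relatives in the endoplasmic reticulum (ER) are chaperones, which hold, refold or hand on other proteins. In the cytosol, HSP70 proteins bind short unfolded stretches and release them with ATP, J-domain proteins bring them their clients, HSP110 proteins exchange the nucleotide, HSP90 proteins finish the folding of kinases and receptors, and small heat shock proteins keep damaged proteins from clumping. The ER holds an HSP70 and an HSP90 of its own, whose genes are switched on by the unfolded protein response, while the inducible cytosolic genes are switched on by heat shock factor 1. Inducible chaperone and immediate early genes are also known to respond to the warm enzyme digestion used to free cells from tissue.

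The 10 chaperone genes *Hspa1a*, *Hspa1b*, *Hspa8*, *Hspa5*, *Hsp90aa1*, *Hsp90ab1*, *Hsp90b1*, *Hspb1*, *Dnajb1* and *Hsph1* were taken by symbol from the 55401 genes measured, and each symbol matched 1 row. Their RNA was measured in lymphatic endothelial cells (LECs), the lining cells of lymphatic vessels, which were sorted from dura of wild-type male C57BL/6J mice as cells positive for LYVE-1, podoplanin and CD31 and negative for CD45. Weeks before, all mice had been injected into the cisterna magna with adeno-associated virus of serotype 9. The treated group (AAV-VEGF-C) received a virus encoding VEGF-C, a growth factor for lymphatics, and the virus of the control group (AAV-CTRL) encoded a soluble part of VEGFR-3 fused to immunoglobulin, to which VEGF-C does not bind. The dura of both groups was digested with warm collagenase D and DNase before the sort. Each group had 3 libraries, each from 10 to 12 pooled meninges, and the libraries numbered 1, 2 and 3 came from 3 repeats of the experiment that held both groups.

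The groups differed in depth before any gene was compared. Depth here is the total of counts assigned to genes in a library, and the number of reads sequenced was not compared. The total counts were 6530269 to 12399498 in the controls and 564475 to 3261935 in the treated libraries (treated over control mean 0.196, two-sided exact permutation p = 0.1, below which 3 libraries against 3 cannot go). The depth ratio was 0.112 without AAV-VEGF-C replicate 3. Reads in 2170 genes of families not known to be used by endothelium (odorant, vomeronasal and taste receptors, keratin-associated proteins, defensins) took 165 to 298 CPM (counts relative to the whole library) in the controls and 2993 to 7189 CPM in the treated libraries (ratio of means 21.7, exact permutation p = 0.1, ratio 15.9 without AAV-VEGF-C replicate 1). Per kilobase these families stood at no more than 1.17 CPM, in AAV-VEGF-C 1, against 24.7 CPM per kilobase for *Hsp90aa1*, 3.66 for *Hsph1* and 3.11 for *Hspb1* in the same library. The *Hspb1* value came from an estimated count of 1.81, under the floor of 3 counts, so it does not place the gene above these families. Its 95% Wilson interval was 0.972 to 12.9 CPM before division by length. Depth and background reads moved together with treatment, and the design gives no way to separate them (they cannot be told apart), and in bulk RNA fewer cells of a type and less RNA per cell cannot be told apart either. The 8 lymphatic markers checked summed to 1142.1 to 2287.4 scaled CPM in the controls and 654.8 to 3863.6 in the treated libraries, a wide spread. By edgeR's quasi-likelihood test 0 of 8 were called in either direction, with 0 of 8 at an unadjusted p under 0.05. For *Lyve1* the log2 fold change was 0.0062 (adjusted p = 0.997), whose sign changed with the scaling. The gene of the vector's product, *Vegfc*, was not called either (log2 fold change -0.32, adjusted p = 0.757), and its sign changed in the drawn-down and higher-filter fits. RNA of other cells was present in both groups. The 7 fibroblast markers summed to 9514.7 to 22899.4 scaled CPM in the controls and 6143.2 to 10673.3 in the treated libraries, with *Dcn* called lower, and the 6 mural cell markers to 538.6 to 919.8 and 254.2 to 520.8. All 7 and all 6 of these markers had negative estimates, as had 6 of 6 blood endothelial markers, the fibroblast sums overlapped between groups and the mural sums did not. The blood endothelial markers summed to 340.4 to 2829.8 scaled CPM in the controls and 568.8 to 936.1 in the treated libraries. Leukocyte markers summed to 112.4 to 5237.1 scaled CPM in the controls and 131.7 to 4190.8 in the treated libraries, with 0 of 8 called (0 at an unadjusted p under 0.05). Of 7 Schwann and neural cell markers *Sox10* and *Rbfox3* were called higher and *S100b* lower, and their sums were 66.4 to 96.4 and 84.6 to 106.3. Mitochondrial genes took 2.72% to 7.34% of counts in the controls and 0.841% to 2.72% in the treated libraries. The part of these differences in the values below was not tested.

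Against this background no chaperone gene passed the test of treatment, and most sat lower in the treated libraries. Of the 10 genes, 0 were called higher and 0 lower at an adjusted p under 0.05 by edgeR, where 10.5% of the 17459 tested genes were higher and 0.659% lower. The unadjusted p was under 0.05 for 5 of the 10 genes, all with negative estimates, as it was for 28.1% of all tested genes in either direction and for 30.7% of those averaging 10 TPM or more. DESeq2 called 4 of the 10 genes lower, where it called 1.6% of 30053 genes lower. The median log2 fold change over the 44563 genes of that fit was 2.29. Its share of lower calls among genes averaging 10 TPM or more was not computed. Limma on log2(TPM + 1) called 0 of the 10 and 2.49% of all genes lower, and with the experiment as a block edgeR called 1 of the 10 and 2.07% of all genes lower. The log2 fold change was negative for 8 of 10, with a median of -0.76, whereas the median over all tested genes was -0.0037. Abundant genes as a whole were shifted in the same direction: over the 4039 tested genes averaging 10 TPM or more (an abundance per length that adds up to the same total in every library) the median was -0.48, and 77.9% of them had a negative estimate. The abundant genes held 1.56% higher and 2.13% lower calls.

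Without the test, the levels can be ordered. In TPM, 8 of the 10 genes were below every control in all 3 treated libraries, where 36.4% of all tested genes and 65.7% of those with at least 10 TPM were. In CPM scaled by the edgeR factors (TMM), 7 of the 10 genes were separated in this way, against 17.6% of all tested genes and 38.5% of those with at least 10 TPM. In scaled CPM 0 of the 10 genes were above every control in all treated libraries, against 22.3% of all tested genes and 9.11% of those with at least 10 TPM. The 10 genes together took 0.45%, 0.396% and 0.491% of the counts in AAV-CTRL 1, 2 and 3, and 0.162%, 0.3% and 0.32% in AAV-VEGF-C 1, 2 and 3. AAV-VEGF-C 1, the shallowest library, gave the lowest TPM of all 6 libraries for each of the 10 genes.

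**Figure D1:**
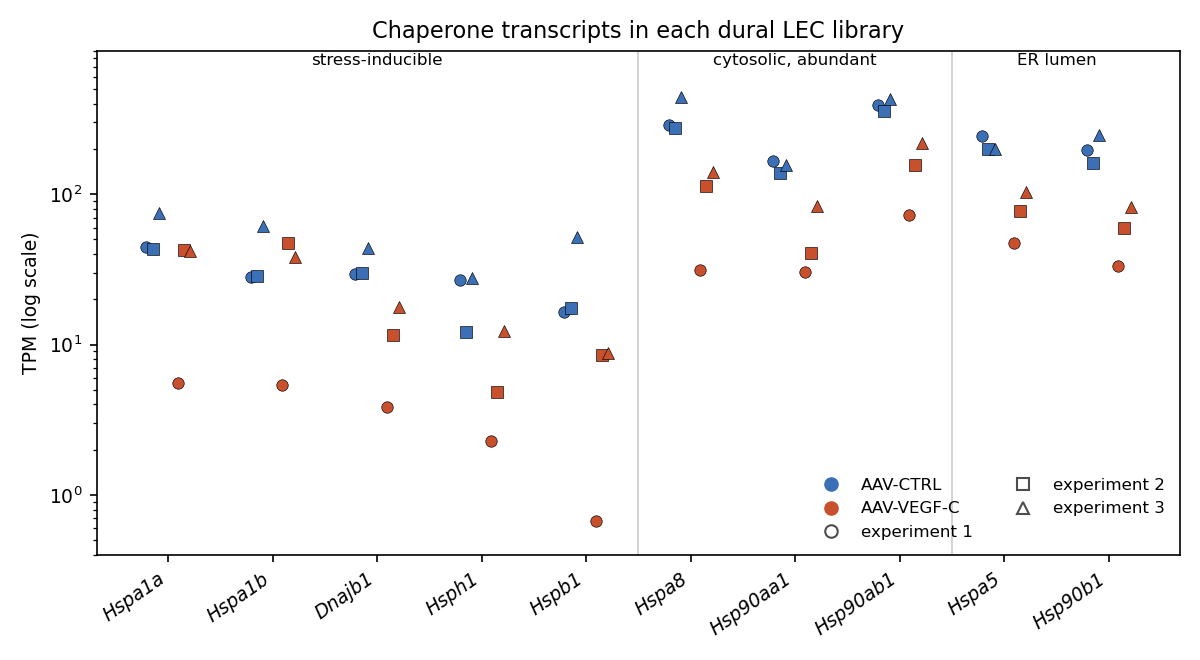
TPM of the 10 chaperone genes (log axis) in each of the 6 libraries, AAV-CTRL in blue and AAV-VEGF-C in red, with marker shape giving the experiment. Only *Hspa1b* and *Hsph1* overlapped between groups in TPM, and *Hspb1* in AAV-VEGF-C 1 was the lowest value, at 0.675 TPM.

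The stress-inducible HSP70 pair came first, because these were the 2 genes whose estimates were not negative. *Hspa1a* and *Hspa1b* encode nearly the same protein and lie next to each other on the minus strand of chromosome 17 (GRCm38, 34969190 to 34972156 and 34956436 to 34959238). Their 250 bases before the RefSeq start (GRCm38.p6, chr17:34972157-34972406 and chr17:34959239-34959488, minus strand) are shown because the copies differ so little and because the letters of a heat shock element lie there. The sequences were identical at 247 of 250 bases. The capitals mark GAANNTTC, a pair of heat shock element units head to head, at bases -104 to -97 in both.

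Hspa1a: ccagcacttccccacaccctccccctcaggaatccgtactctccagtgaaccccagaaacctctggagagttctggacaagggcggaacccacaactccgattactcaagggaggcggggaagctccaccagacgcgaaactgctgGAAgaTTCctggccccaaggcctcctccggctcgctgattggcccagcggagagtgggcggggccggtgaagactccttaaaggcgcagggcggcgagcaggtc

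Hspa1b: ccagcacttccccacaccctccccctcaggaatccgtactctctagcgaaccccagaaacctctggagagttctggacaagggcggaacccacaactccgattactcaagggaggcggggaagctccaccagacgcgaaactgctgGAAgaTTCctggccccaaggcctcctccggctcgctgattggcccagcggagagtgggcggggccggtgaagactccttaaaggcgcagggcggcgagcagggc

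In TPM, *Hspa1a* was at 44.5, 43.1 and 74.9 in AAV-CTRL 1, 2 and 3 and at 5.54, 42.3 and 41.8 in AAV-VEGF-C 1, 2 and 3 (54.2 ± 18 against 29.9 ± 21.1, SD, n = 3). Apart from AAV-VEGF-C 1, the treated libraries lay just under the lowest control. In scaled CPM the same gene was at 271.9, 225.5 and 274.6 in the controls and at 101.7, 377.7 and 298.2 in the treated libraries, so that AAV-VEGF-C 1 was the lowest library and AAV-VEGF-C 2 the highest and the groups overlapped. Its fitted log2 fold change was 0.019 (SE 0.46, 95% interval -1.04 to 1.08, edgeR adjusted p = 0.988). It was negative under most other scalings but 0.43 with counts drawn down to the smallest total.

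*Hspa1b* had the highest estimate of the 10 genes, which did not pass and whose interval spanned 0. It was at 28.1, 28.4 and 61.5 TPM in the controls and at 5.4, 47.2 and 38.4 TPM in the treated libraries, overlapping (39.3 ± 19.2 against 30.3 ± 22). In scaled CPM it was at 157.7, 136.0 and 210.9 in the controls and at 90.1, 390.6 and 253.3 in the treated libraries. Thus treated libraries 2 and 3 stood above every control and library 1 below every control. This gave a log2 fold change of 0.55 (SE 0.50, 95% interval -0.60 to 1.70, adjusted p = 0.514), -0.71 under limma on log2(TPM + 1) and -0.067 without AAV-VEGF-C replicate 2. With counts drawn down to the smallest total it was 0.86. Within experiments 1, 2 and 3, the log2 ratio of treated to control scaled CPM was -0.81, 1.52 and 0.26 for *Hspa1b* and -1.42, 0.74 and 0.12 for *Hspa1a*. The experiments did not share a sign for either copy.

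How reads were split between the copies is uncertain. Of the 100-base windows in its transcripts, *Hspa1a* shared 47.1% with *Hspa1b*, and *Hspa1b* shared 49.9% with *Hspa1a*. *Gm20481* also overlaps *Hspa1a* on the other strand. *Hspa1a* took 63.3% (95% Wilson interval 61.4 to 65.1), 62.4% (60.6 to 64.2) and 56.6% (55.4 to 57.7) of their joint counts in AAV-CTRL 1, 2 and 3. It took 52.7% (42.4 to 63.4, from 83 counts), 49.2% (46.2 to 52.2) and 54.1% (51.9 to 56.3) in AAV-VEGF-C 1, 2 and 3. These intervals cover only counting error. It is not known whether single molecules were counted, and if reads were counted the intervals are too narrow. Every treated library gave *Hspa1a* a smaller share than every control library, with means of 60.7% ± 3.65 and 52% ± 2.51 (difference -8.75 percentage points, two-sided exact permutation p = 0.1, the smallest possible). Summing the copies removes the split: the sum was at 429.5, 361.5 and 485.4 scaled CPM in the controls and at 191.8, 768.3 and 551.6 in the treated libraries. The sum overlapped between groups, with a log2 fold change of 0.25 (SE 0.49, 95% interval -0.88 to 1.38, edgeR adjusted p = 0.788) and of 0.063 with the experiment as a block (adjusted p = 0.939).

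The helpers of inducible HSP70 had negative estimates, and the groups of 1 of the 2 genes overlapped. *Dnajb1* (GRCm38 chromosome 8, 83608193 to 83612653), the J-domain protein that delivers clients to HSP70 and is itself induced by heat, was at 29.5, 29.9 and 44.2 TPM in the controls and at 3.87, 11.6 and 17.9 TPM in the treated libraries. The groups did not overlap (34.5 ± 8.36 against 11.1 ± 7.02). In scaled CPM it was at 163.3, 145.1 and 143.3 against 67, 93.9 and 112.7, a log2 fold change of -0.71 (SE 0.28, 95% interval -1.37 to -0.055, adjusted p = 0.15). Neither of its 2 RefSeq starts had one of the searched motifs in the 250 bases before it.

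*Hsph1* (chromosome 5, 149614287 to 149636376), an HSP110 nucleotide exchange factor, was at 27, 12.2 and 27.8 TPM in the controls and at 2.28, 4.81 and 12.4 TPM in the treated libraries. The control of experiment 2 was the low one, and it lay below the treated library of experiment 3. Its scaled CPM of 94.6, 33.6 and 62.4 in the controls and 34.7, 45.9 and 56.1 in AAV-VEGF-C overlapped too (log2 fold change -0.46, SE 0.41, 95% interval -1.41 to 0.50, adjusted p = 0.512). The estimate was -0.10 without AAV-CTRL replicate 1, whereas leaving out AAV-CTRL replicate 2 gave -0.82. Its promoter held TTCtcGAA, 2 heat shock element units tail to tail, a letter pattern found in 7.17% of 32851 RefSeq promoter windows.

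*Hspb1* (chromosome 5, 135887919 to 135889563), the small heat shock protein also called HSP25 in mice, had the lowest estimate of the 10 genes and the thinnest counts. Its 250 bases before the RefSeq start (GRCm38.p6, chr5:135887669-135887918, plus strand) held the head-to-head pattern GAANNTTC at -117 to -110 and at -97 to -90, shown in capitals because no other matched promoter of the 10 genes held this pattern more than once.

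Hspb1: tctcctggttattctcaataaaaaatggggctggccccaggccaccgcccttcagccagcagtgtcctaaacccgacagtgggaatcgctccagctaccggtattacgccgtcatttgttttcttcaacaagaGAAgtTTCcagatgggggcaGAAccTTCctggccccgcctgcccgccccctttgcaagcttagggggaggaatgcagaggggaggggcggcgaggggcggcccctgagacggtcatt

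This pattern was in 6.69% of all RefSeq promoter windows, and the longer 3-unit forms GAANNTTCNNGAA and TTCNNGAANNTTC, in 0.466% of windows, were in none of the 7 members' promoters that matched. *Hspb1* was at 16.5, 17.4 and 52.1 TPM in the controls and at 0.675, 8.49 and 8.75 TPM in the treated libraries. These values came from 191, 211 and 691 counts in the controls and from 1.81, 33 and 67 estimated counts in the treated libraries, so that in AAV-VEGF-C 1 it was under the floor of 3 counts (5.31 CPM there). The log2 fold change was -1.02 (SE 0.48, 95% interval -2.14 to 0.096, adjusted p = 0.213), and the ratios within experiments ran from -2.73 in experiment 1 to -0.18 in experiment 2. Its transcripts shared 44% of their 100-base windows with the pseudogene *Hsp25-ps1*, so its counts are uncertain.

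The abundant cytosolic chaperones all had negative estimates, with no overlap between groups. *Hspa8* (GRCm38 chromosome 9, 40800984 to 40810087), the constitutive HSP70 that also uncoats clathrin vesicles, was at 288.7, 276.1 and 443.2 TPM in the controls and at 31.4, 113.8 and 140.0 TPM in the treated libraries (336.0 ± 93.1 against 95.1 ± 56.7). Its ranks by TPM among all genes were 115, 157 and 112 in the controls and 465, 244 and 226 in the treated libraries. In scaled CPM it was at 924.9, 870.4 and 1005.8 against 388.2, 612.1 and 589.8, with no overlap. The log2 fold change was -0.81 (SE 0.33, 95% interval -1.57 to -0.059, edgeR adjusted p = 0.152). Its counts are uncertain, because 57.1% of its 100-base windows occurred in other genes, most of them in *Gm26825*, and 3 small nucleolar RNA genes lie within it.

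*Hsp90ab1* (chromosome 17, 45567775 to 45573271), the constitutive cytosolic HSP90, had the highest TPM of the 10 genes in every library but AAV-CTRL 3, where *Hspa8* was higher, and ranked 93, 115 and 115 among all genes in the controls and 198, 179 and 154 in the treated libraries. Its TPM was 390.7, 360.2 and 427.2 in the controls and 73.1, 156.4 and 218.1 in the treated libraries, without overlap. It shared no 100-base window with another gene, and in scaled CPM it was at 1177.5, 1069.3 and 906.2 against 647.0, 645.1 and 727.8. Its log2 fold change was -0.64 (SE 0.31, 95% interval -1.36 to 0.074, adjusted p = 0.221).

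*Hsp90aa1* (chromosome 12, 110690605 to 110702728), the inducible cytosolic HSP90, came closest to the threshold. It was at 167.4, 137.8 and 157.0 TPM in the controls and at 30.6, 40.8 and 83.5 TPM in the treated libraries (154.0 ± 15 against 51.6 ± 28.1). Scaled CPM was 343.8, 285.4 and 304.8 in the controls and 127.1, 164.1 and 177.1 in the treated libraries, every one below the lowest control. The log2 fold change was -0.99 (SE 0.27, 95% interval -1.62 to -0.36, edgeR adjusted p = 0.0579). With the experiment as a block the adjusted p was 0.0494, just under the threshold, and within experiments 1, 2 and 3 the log2 ratios were -1.44, -0.80 and -0.78. Of its 100-base windows 40.7% were shared with other genes, mostly *Gm12346*, so its counts are uncertain.

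The lumenal pair of the ER was lower in every treated library. *Hspa5* (GRCm38 chromosome 2, 34771970 to 34777547) encodes BiP, the ER HSP70, and *Hsp90b1* (chromosome 10, 86690209 to 86705509) encodes GRP94, the ER HSP90. Their promoters are known for ER stress elements, and in these windows the form CCAAT, 9 bases, CCACG was found in 37 of 32851 RefSeq promoters (0.113%). The sites are shown because, of the 7 members matched, only these 2 genes had one. The capitals mark the CCAAT and CCACG ends, and the second *Hsp90b1* site reads on the opposite strand.

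Hspa5, -65 to -47: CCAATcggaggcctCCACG

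Hsp90b1, -212 to -194: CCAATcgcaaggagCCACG

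Hsp90b1, -107 to -89: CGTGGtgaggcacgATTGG

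*Hspa5* was at 243.4, 199.2 and 201.2 TPM in the controls and at 47.6, 76.9 and 104.2 TPM in the treated libraries (214.6 ± 24.9 against 76.2 ± 28.3). In scaled CPM it was at 705.7, 537.3 and 513.6 against 268.1, 341.2 and 343.4, a log2 fold change of -0.88 (SE 0.30, 95% interval -1.57 to -0.19, edgeR adjusted p = 0.103). *Hsp90b1* was at 197.2, 161.5 and 248.4 TPM in the controls and at 33.3, 59.2 and 82.8 TPM in the treated libraries (202.3 ± 43.7 against 58.4 ± 24.7). Its scaled CPM was 847.0, 632.6 and 655.6 against 390.5, 387.0 and 420.1, a log2 fold change of -0.83 (SE 0.29, 95% interval -1.51 to -0.15, adjusted p = 0.112). For both genes the groups were apart on either scale and the ratio was negative in each of the 3 experiments. *Hsp90b1* shared 7.37% of its windows with other genes, mostly the antisense gene *1810014B01Rik*, and *Hspa5* shared none.

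**Figure D2:**
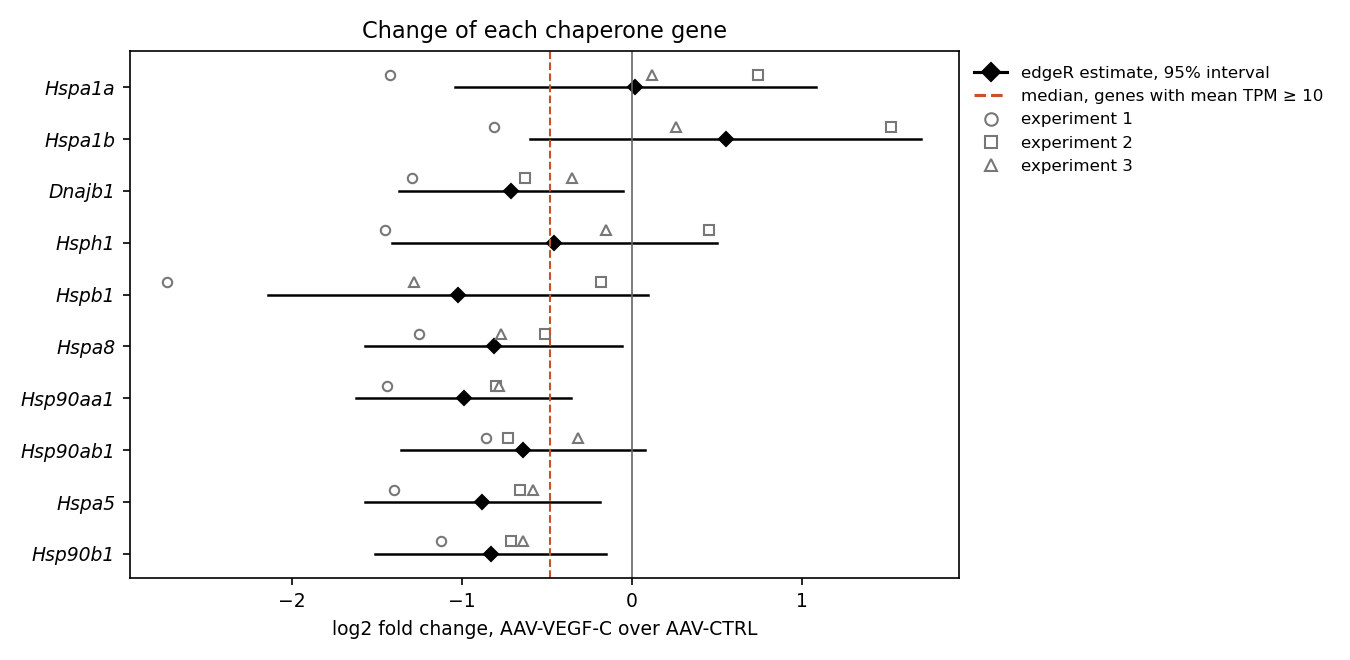
Log2 fold change of AAV-VEGF-C over AAV-CTRL for the 10 chaperone genes, with the edgeR estimate and its 95% interval in black and the log2 ratio of scaled CPM within each experiment as open markers. The dashed line is the median of the 4039 tested genes averaging 10 TPM or more, -0.48, which lies inside every interval, and the values of experiment 1 are the lowest for each gene.

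Ratios between 2 genes of the same library do not depend on how libraries are scaled, so the members were also set against each other. These ratios were chosen with the values known and carry no test. How often pairs of other genes separate the groups was not computed. Inducible over constitutive HSP70, the TPM of *Hspa1a* plus *Hspa1b* over that of *Hspa8*, was 0.252, 0.259 and 0.308 in the controls and 0.348, 0.786 and 0.572 in the treated libraries. Every treated library was above every control. In counts this HSP70 ratio was 0.464, 0.415 and 0.483 in the controls and 0.495, 1.26 and 0.935 in the treated libraries. There AAV-VEGF-C 1 lay barely above the highest control, from 83 counts of the pair and 168 of *Hspa8*. The same sum over *Dnajb1* was 2.46, 2.39 and 3.09 in the controls and 2.83, 7.71 and 4.48 in the treated libraries, where AAV-VEGF-C 1 lay among the controls. *Dnajb1* over *Hspa8* overlapped between groups, at 0.102, 0.108 and 0.0997 in the controls and 0.123, 0.102 and 0.128 in the treated libraries. *Hspa5* over *Hspa8* overlapped too, at 0.843, 0.722 and 0.454 against 1.52, 0.675 and 0.744. So did *Hsph1* over *Hspa8*, at 0.0936, 0.0443 and 0.0626 against 0.0726, 0.0423 and 0.0887. The inducible over the constitutive HSP90, *Hsp90aa1* over *Hsp90ab1*, was 0.428, 0.382 and 0.367 against 0.418, 0.261 and 0.383 in TPM, with overlap. In counts the HSP90 ratio did not overlap, at 0.292, 0.267 and 0.336 in the controls and 0.196, 0.254 and 0.243 in the treated libraries. In the ER, *Hsp90b1* over *Hspa5* was 0.81, 0.811 and 1.23 in the controls and 0.7, 0.77 and 0.794 in the treated libraries, so that the groups were apart in TPM. In counts the ER ratio overlapped, at 1.2, 1.18 and 1.28 against 1.46, 1.13 and 1.22.

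**Figure D3:**
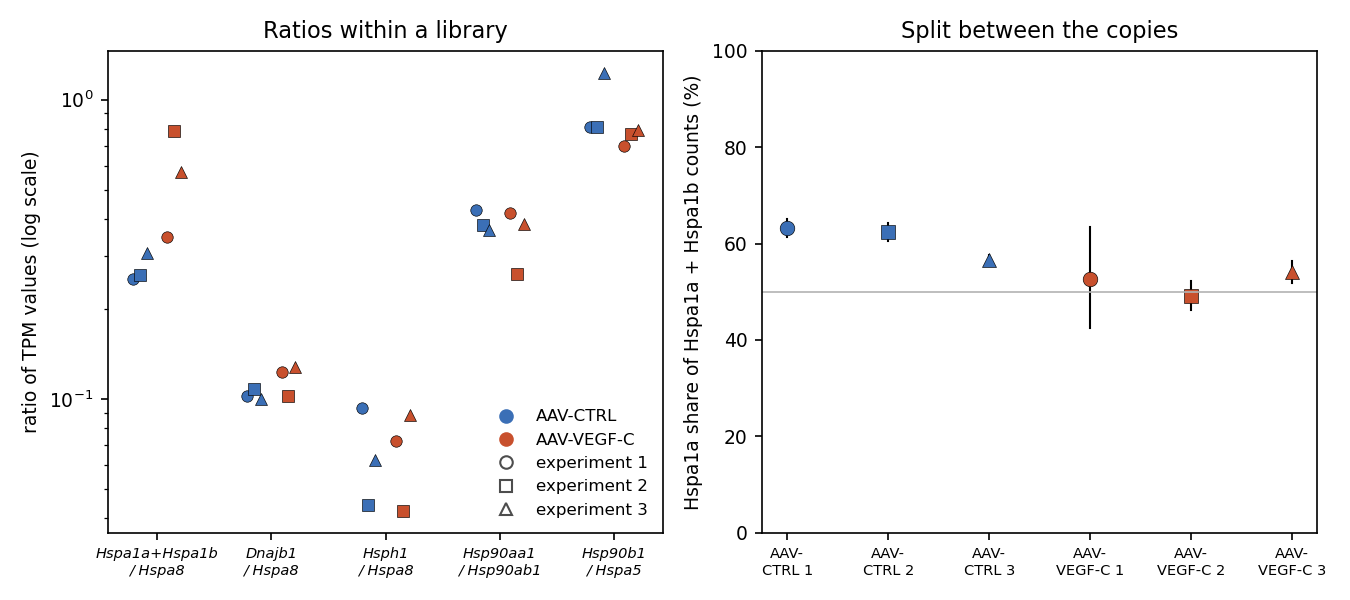
Left, ratios of TPM between chaperone genes within each library (log axis). Right, the percentage of *Hspa1a* plus *Hspa1b* counts given to *Hspa1a*, with 95% Wilson intervals and a grey line at 50%. Inducible over constitutive HSP70 was 0.252 to 0.308 in AAV-CTRL and 0.348 to 0.786 in AAV-VEGF-C, and the *Hspa1a* share was 56.6% to 63.3% and 49.2% to 54.1%.

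The rest of the chaperone network was then read from 10 lists of related genes. The counts below stand beside these shares. Of all tested genes edgeR called 10.5% higher and 0.659% lower, 28.1% had an unadjusted p under 0.05 and 50.2% a negative estimate. Among those averaging 10 TPM or more the shares were 1.56%, 2.13%, 30.7% and 77.9%. Among 10 other HSP70 and HSP110 proteins, edgeR called 0 in either direction (5 at an unadjusted p under 0.05, 1 lower by DESeq2), with 9 negative estimates and a median of -0.72. *Hspa9*, the mitochondrial HSP70, had a log2 fold change of -1.11 and *Hspa4*, a further HSP110 protein, of -0.71. Of 8 cytosolic J-domain proteins 0 were called (1 at an unadjusted p under 0.05, 0 by DESeq2). They had 5 negative estimates and a median of -0.36. Their most abundant members *Dnaja1* and *Dnaja2* had log2 fold changes of -0.62 and -0.68.

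Of 15 co-chaperones of HSP70 and HSP90, edgeR called 1 lower and 0 higher (6 at an unadjusted p under 0.05), and 14 estimates were negative. DESeq2 and the replicate block each called 1 lower and 1 higher, and limma on log2(TPM + 1) called 0. The higher one was *Unc45a*, a myosin and HSP90 co-chaperone named after its values were seen, with a mean of 47.6 scaled CPM in the controls and 167.5 in the treated libraries (log2 fold change 1.79, edgeR adjusted p = 0.0661 without the block). The lower one was *St13*, which encodes the HSP70-interacting protein Hip. *St13* was at 127.3, 110.5 and 113.1 scaled CPM in the controls and at 50.8, 53.8 and 69.9 in the treated libraries (log2 fold change -1.0, adjusted p = 0.0481). The call was lost without any 1 of the 6 libraries, with adjusted p from 0.0671 without AAV-VEGF-C replicate 1 to 0.0997 without AAV-CTRL replicate 3.

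The small heat shock proteins held the one higher call that edgeR made without the block among these 10 lists. Of 5 tested, 1 was higher and 0 lower (2 at an unadjusted p under 0.05), with 3 negative estimates and a median of -0.54. DESeq2 also called 1 higher and 0 lower, limma on log2(TPM + 1) called 1 higher and 2 lower (*Hspb8* and *Cryab*), and *Hspb3* and *Cryaa* were too low to test. The higher gene was *Hspb7*, a small heat shock protein known from heart and skeletal muscle. It had 13, 5 and 13 counts in the controls and 318, 151 and 27 in the treated libraries, or 2.09, 0.636 and 0.88 against 734.8, 108.2 and 7.76 scaled CPM. The fitted difference was 7.89 on the log2 scale (SE 1.64, edgeR adjusted p = 0.0259). The 3 treated libraries differed widely, and the call was lost without AAV-CTRL replicate 2, AAV-CTRL replicate 3 or AAV-VEGF-C replicate 2 (adjusted p of 0.0856, 0.0665 and 0.0543). It was also lost under the TPM filter of 5 (estimate 8.39, edgeR adjusted p = 0.291). Without AAV-VEGF-C replicate 1 the estimate was 5.55 (adjusted p = 0.0465). Of 8 striated muscle markers only 3 could be tested, of which *Acta1* was called higher. Their summed level was 7.07 to 10.5 scaled CPM in the controls and 6.93 to 43.4 in the treated libraries, while *Ckm*, *Myh4*, *Tnnt3*, *Tnni2* and *Mylpf* were too low to test.

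The ER list held most of the lower calls. Of 18 other ER chaperones and folding enzymes, edgeR called 4 lower and 0 higher (13 at an unadjusted p under 0.05), with 16 negative estimates and a median of -0.84. By rule the 2 largest were *Dnajc10*, an ER disulfide reductase with a J domain, and *Manf*, a secreted ER stress protein. *Dnajc10* was at 72.4, 52.5 and 83.2 scaled CPM in the controls and 18.5, 32.3 and 25.9 in the treated libraries (log2 fold change -1.41, adjusted p = 0.0315). *Manf* was at 58.4, 38.8 and 49.6 against 11.6, 20.8 and 20.7 (log2 fold change -1.41, adjusted p = 0.0327). The other two, named after their values were seen, were *Pdia3*, a disulfide isomerase of glycoproteins (-1.34, adjusted p = 0.0358), and *Dnajc3*, a J-domain co-chaperone of BiP (-1.28, adjusted p = 0.0269). In all 4 the treated libraries were below every control, and the collagen chaperone gene *Serpinh1* joined them with the experiment as a block, making 5. The calls, more than the estimates, changed with the libraries used: 2 were left without AAV-VEGF-C replicate 1 (*Manf* and *Dnajc3*) and 0 without any 1 of the other 5 libraries, where the 4 adjusted p ran from 0.0543 to 0.0975. The estimates themselves stayed between -1.72 and -1.18 with any 1 library left out. With counts drawn down to the smallest total they were nearer 0. They were then -0.87 for *Dnajc10*, -0.56 for *Manf*, -0.90 for *Pdia3* and -0.76 for *Dnajc3* (edgeR adjusted p from 0.347 to 0.664). DESeq2 called 9 of the 18 lower and limma on log2(TPM + 1) called 5, where they called 1.6% and 2.49% of all genes lower.

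The regulators and other compartments gave no calls. The unfolded protein response signals from the ER to the nucleus. Of its 13 tested genes edgeR called 0 (3 at an unadjusted p under 0.05, 0 by DESeq2). This list had 9 negative estimates and a median of -0.49. Its most abundant genes were *Ppp1r15a*, which restarts translation, with a log2 fold change of -0.45, and the transcription factor gene *Atf4*, with -0.56. *Chac1* and *Derl3* were too low to test. Of 3 heat shock transcription factors 0 were called (0 at an unadjusted p under 0.05, 0 by DESeq2), with all 3 estimates negative. *Hsf1* was at 42.6, 28.9 and 30.7 scaled CPM in the controls and 37, 27.2 and 35.4 in the treated libraries, overlapping (log2 fold change -0.044), with a sign that changed with the scaling, and *Hsf2* had -0.59.

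Of 7 mitochondrial chaperones 0 were called (3 at an unadjusted p under 0.05, 1 lower by DESeq2, and *Dnaja3* lower with the block), with all 7 estimates negative and a median of -0.71. *Hspd1*, the mitochondrial HSP60, had a log2 fold change of -0.92 and *Trap1*, the mitochondrial HSP90, of -0.71. Of 8 subunits of the CCT chaperonin, which folds actin and tubulin, 0 were called (3 at an unadjusted p under 0.05, 1 lower by DESeq2). *Tcp1* was lower by limma on log2(TPM + 1) and *Cct5* lower with the block. All 8 estimates were negative, with a median of -0.63. *Tcp1* and *Cct4* had log2 fold changes of -0.90 and -0.48.

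Immediate early genes, which like the inducible chaperones respond to handling of tissue, were abundant in both groups. Of 16 genes edgeR called 0 (0 at an unadjusted p under 0.05, 0 by DESeq2), with 15 negative estimates and a median of -0.49. *Fos* was at 2565.8, 3197.1 and 2194.1 scaled CPM in the controls and at 1462.7, 1831.3 and 1534.2 in the treated libraries (log2 fold change -0.72). *Jun* was at 2146.2, 2832.4 and 1836.9 against 1231.7, 1999.0 and 1870.6 (log2 fold change -0.42). *Fos* was below every control in all treated libraries and *Jun* overlapped. Any part of the digestion in the chaperone levels was not tested.

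**Figure D4:**
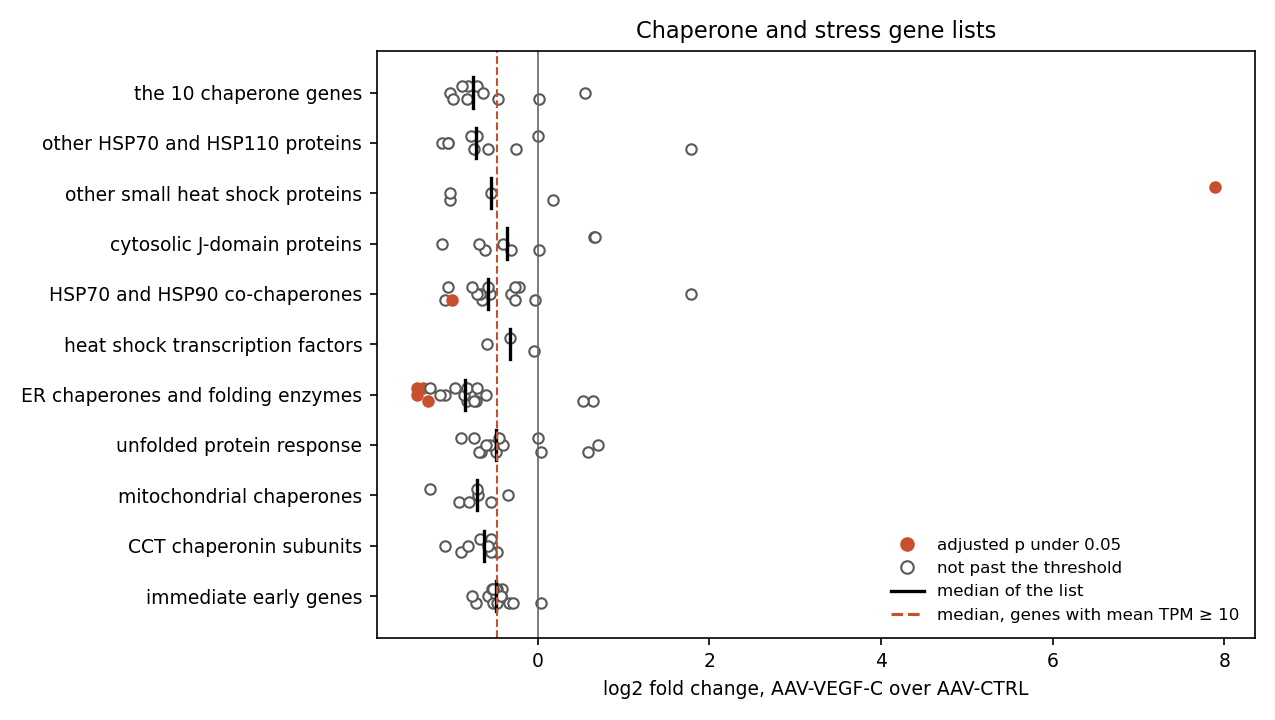
Log2 fold change of AAV-VEGF-C over AAV-CTRL for each tested gene of the 10 chaperone genes and of 10 related lists, filled where the edgeR adjusted p was under 0.05. Black bars are list medians, and the dashed line is the median of tested genes averaging 10 TPM or more, -0.48. The filled points are 4 ER genes and *St13* on the lower side and *Hspb7* at 7.89.

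The pattern of the inducible pair over libraries was set against other transcripts. Over the 6 libraries, the log2 scaled CPM of *Hspa1a* plus *Hspa1b* correlated most with *Gm25939* (r = 0.983), *Gm24727* (r = 0.975), *Rnu2-10* (r = 0.942), *Akap8l* (r = 0.932) and *Arid1a* (r = 0.932) among 1891 genes averaging 20 TPM or more. *Gm25939* and *Rnu2-10* are annotated as small nuclear RNAs and *Gm24727* as a small nucleolar RNA. All 5 were lowest in AAV-VEGF-C 1 in TPM. The 6 points share the depth and the group of their libraries, and r above 0.9 was reached by 0.423% of these genes.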

How the data were processed

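Total RNA of pooled dural LECs was sequenced from 3 low-input stranded libraries per group. The files deposited by the authors hold estimated counts for each gene, with no scaling, and TPM, corrected for length and library total. The submitters' processing notes name FastQC, Trimmomatic, DRAGEN, Picard and mm10. The counting program and the use of strand or molecular identifiers are not given in the sources used here, so overlapping genes are uncertain.

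Groups came from the labels. Counts were rounded, filtered with filterByExpr, scaled by TMM and tested with edgeR 4.0.16 (R 4.3.3, quasi-likelihood test, Benjamini-Hochberg over all 17459 tested genes, threshold 0.05). The alternatives were DESeq2 1.42.0 (the study's tool), limma 3.58.1 on log2(TPM + 1) and log2(TPM + 0.1), other scalings and filters, counts drawn down to the smallest total, the replicate block, *Hspa1a* and *Hspa1b* summed, and leaving out each library. Exact permutation tests were two-sided. Totals from 564475 to 12399498 counts limit low genes of AAV-VEGF-C most. Within each group every pair of libraries differed beyond sampling noise (lowest chi-square over its degrees of freedom 9.61).

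Replicate numbers mark shared experiments in the labels, and deviations of same-numbered libraries correlated across genes at 0.38, 0.30 and 0.15, so the numbers were taken to pair the libraries. One pair of different numbers, AAV-CTRL 3 and AAV-VEGF-C 2, was at 0.22, above the last of these. Of the gene identifiers, 98.1% equal GENCODE M21 with their version. Positions came from it, and promoters from RefSeq (GRCm38.p6), which matched 7 of the 10 genes. Those of *Hspa8*, *Hsp90aa1* and *Hsp90ab1* did not match. Motifs were searched on both strands, and the 3-unit heat shock element contains the 2-unit ones. *Ddit3* has 2 identifiers, and the one with more counts was used. Besides the 10 genes, up to 2 genes per list were named, those called with the largest change or else the most abundant, with further called genes named after their values were seen. Also named were the 5 genes most correlated with *Hspa1a* plus *Hspa1b*, and *Vegfc* and *Lyve1*. The 10 genes and the lists were chosen with earlier results of these data known.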

Additional observations from a re-analysis of the deposited data

How the results depend on the processing

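Of the 10 chaperone genes, 8 kept a negative log2 fold change under all 16 alternatives run for each, but the sizes moved, from -2.05 to -0.44 for *Hspa8*, -2.67 to -0.46 for *Hspb1* and -2.0 to -0.10 for *Hsph1*. The median of the 10 genes shrank from -0.76 in the main fit to -0.33 with counts drawn down and -0.42 under the TPM filter of 5. The number at an unadjusted p under 0.05 went from 5 to 0 and 1. DESeq2 called 4 of them lower (*Hspa8*, *Hspa5*, *Hsp90aa1* and *Hsp90b1*), edgeR with no filter 2 (*Hsp90aa1* and *Hspb1*) and the replicate block 1 (*Hsp90aa1*). The other settings called 0 of the 10 (edgeR or limma), with 0 to 8 at an unadjusted p under 0.05. *Hspa1a* turned from 0.019 to -0.048 with DESeq2, -0.047 with library size alone, -0.18 with no filter, -0.088 scaled on the 2000 most abundant genes, -0.13 with the replicate block, and -1.22 and -1.28 with limma at a pseudocount of 1 and of 0.1, and ran from -0.46 to 0.33 when libraries were left out. *Hspa1b* turned to -0.71 and -0.77 with limma at the same pseudocounts and ran from -0.067 to 0.87 when libraries were left out. Both copies moved up with counts drawn down (*Hspa1a* 0.43, *Hspa1b* 0.86) and under the TPM filter of 5 (0.33 and 0.85). Limma on TPM moved the median of all tested genes to -0.72 and -1.04, other scalings moved it to between -0.15 and 0.035, and under each the members' median stayed below it. With DESeq2 the median of all genes was 2.29 and with no filter 1.88. Genes averaging 10 TPM or more already had a median of -0.48 in the main fit. Their median under the alternatives was not computed, so the members were not compared there with genes of like abundance. With limma on log2(TPM + 1), 71.9% of all calls were higher, against 94.1% in the edgeR test.

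The number of genes called higher among all tested was 5586 with DESeq2, 9382 with no filter, 1112 with limma on log2(TPM + 1), 16 with counts drawn down and 9 under the TPM filter of 5, and 0 to 1771 when a library was left out. The number lower was 481 with DESeq2, 1175 with no filter, 434 with limma on log2(TPM + 1), 362 with the replicate block, 53 with library size alone, 39 scaled on the 2000 most abundant genes, 0 drawn down and 0 under the TPM filter of 5 (edgeR, 798 and 1009 genes at an unadjusted p under 0.05), and 0 to 48 when a library was left out. Without AAV-CTRL replicate 2 or 3 both numbers were 0, with 5071 and 4627 genes at an unadjusted p under 0.05. Of the ER list, 9 were lower with DESeq2, 9 with no filter, 2 scaled on the 2000 most abundant genes, 0 drawn down, 0 under the TPM filter of 5, and 0 to 2 when a library was left out. The cause was not tested.

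*Hsf1* turned to 0.0089 with DESeq2's size factors, 0.064 drawn down and 0.32 under the TPM filter of 5 (-0.23 to 0.097 leaving out libraries), and *Vegfc* to 0.41 drawn down and 0.069 under the TPM filter of 5. *Lyve1* turned to -0.062 with DESeq2, -0.17 with library size alone, -0.31 with no filter, -0.22 on the 2000 most abundant genes, -0.018 with the replicate block, and -1.06 and -1.12 with limma (-0.55 to 0.47 leaving out libraries). Beyond the calls given here and in the text, the block changed no call among the 10 genes. *Hspb1* and *Hsph1* had the fewest counts of the 10 genes in every library, 1.81 and 15 in AAV-VEGF-C 1.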
